A study of Mus musculus with 8 samples.

Results

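The 5 mouse Serpina1 genes (Serpina1a, Serpina1b, Serpina1c, Serpina1d and Serpina1e) were followed through 8 single-cell RNA libraries of vascular cells from mice on chow or a high fat diet. They were taken by symbol from the gene lists of the count tables, and all 5 were found among the 30406 gene identifiers shared by every library. The family was chosen by the level of Serpina1e in arterial cells of mesentery in earlier work on these counts, where it was lower on high fat diet than on chow. The arterial values of diet in mesentery, of tissue on either diet and of the difference between the tissues are therefore given here as a description, with no test.

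Serpina1 genes encode alpha-1 antitrypsin, a secreted serine protease inhibitor (serpin) whose best known target is neutrophil elastase. The liver is its main source, and macrophages and some epithelia also make it. Humans have a single gene, while the laboratory mouse carries a cluster of near-identical copies. In blood vessels the inhibitor is known from plasma, where it limits the breakdown of elastin and other matrix proteins, and little textbook knowledge covers synthesis by endothelial cells.

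All mice were male ROSA26-eYFP+/+ Cdh5-CreERT2+ animals, in which Cre under the Cdh5 promoter marks endothelial cells with YFP after tamoxifen. Tamoxifen diet was fed to every group for 2 weeks, starting at 6 weeks of age. At 8 weeks the mice went on to chow with 5.8% fat or to a high fat diet with 60% fat, which lasted 12 to 13 weeks. The 4 groups were mesentery on chow, mesentery on high fat diet, epididymal adipose tissue on chow and epididymal adipose tissue on high fat diet. Each group had a library from run A and one from run B, each a pool of 6 mice, so that n is 2 pools per group and spreads are between pools. Dissociation buffers contained Actinomycin D, which blocks new transcription.

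Run B had more UMIs (unique transcript tags) per library, 18829960 to 36779289 against 3461360 to 6714473 in run A. It also had more barcodes, 3189 to 6218 per library against 1352 to 2780. The median UMIs per cell used were alike in mesentery on chow, at 3426 in run A and 3404 in run B, and higher in run B in each other group. After filters on depth and mitochondrial content and removal of called doublets, 23138 of 27944 barcodes were used as cells, in 29 clusters. Pairs of libraries shared at most 0.383% of the barcodes of the smaller one, and no shared barcode held a Serpina1 UMI in both. The clusters had been formed without the Serpina1 genes. Cluster names carry "-like" since they come from marker genes, and the study's own names may be others. Beside endothelial clusters, the sorted cells held clusters with the markers of macrophages, neutrophils, T cells, B cells, fibroblasts, smooth muscle, mesothelium and adipocytes.

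The 5 genes lie on chromosome 12, on the minus strand, in the GENCODE M21 annotation of the mouse build GRCm38. Serpina1d spans positions 103763594 to 103773592, Serpina1a 103853589 to 103863562, Serpina1c 103894926 to 103904887 and Serpina1e 103946931 to 103958975. Serpina1b spans 103728156 to 103830373, a stretch that contains Serpina1d. For Serpina1b and Serpina1e the starts of transcription in RefSeq, used for the promoters below, lie inside these spans and not at their upper ends. All 5 are protein coding, with main transcripts of 1295 to 1394 bases in 5 exons that are 96.3 to 98.5% identical to each other. Because the libraries read the 3' ends of transcripts, the last 500 bases of each were compared with every other annotated transcript in windows of 90 bases. All windows were unique to the gene for Serpina1e, 96.4% for Serpina1b, 92.5% for Serpina1d, 84.7% for Serpina1c and 78.1% for Serpina1a. A read of Serpina1e is thus the least likely to be lost or misplaced among the copies, and Serpina1a and Serpina1c, which share windows with each other and with the pseudogene Gm8893, are the least certain. The split between the copies depends on how the authors' counting treated reads that match several genes, and the sum of the 5 is given throughout for that reason.

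The copies also share their promoters. The stretch around the start of transcription is shown because the members appear in the same cells, as described below, and because it holds the same 12 letters in all 5. Sequences are from RefSeq (GRCm38.p6), read on the minus strand, 80 bases each, with GTTAATATTCAC in capitals, which is GTTAAT with the 6 letters after it, chosen after the sequences had been read.
Serpina1a, chr12:103863591-103863670: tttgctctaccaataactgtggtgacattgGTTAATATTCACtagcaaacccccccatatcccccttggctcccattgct
Serpina1b, chr12:103738166-103738245: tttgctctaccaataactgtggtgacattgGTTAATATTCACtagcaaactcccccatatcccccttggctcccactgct
Serpina1c, chr12:103904928-103905007: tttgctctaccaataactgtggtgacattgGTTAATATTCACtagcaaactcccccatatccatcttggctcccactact
Serpina1d, chr12:103773600-103773679: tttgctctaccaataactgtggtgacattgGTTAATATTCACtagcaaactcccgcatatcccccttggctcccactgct
Serpina1e, chr12:103956926-103957005: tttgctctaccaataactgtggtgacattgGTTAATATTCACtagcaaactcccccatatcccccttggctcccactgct
Among 32851 mouse promoter windows of 300 bases, searched on both strands, GTTAATATTCAC occurred in 5 windows, those of the 5 genes. Its first 6 letters, GTTAAT, occurred in 7.10% of all windows. Over aligned promoter bases the copies were 91.7 to 98.4% identical, with Serpina1b and Serpina1e the closest pair. A match of letters describes the window only.

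In the 23138 cells, 3155 Serpina1 UMIs were counted, 2912 in mesentery and 243 in adipose tissue. Serpina1e made up 52.8% of them, Serpina1b 38.4% and Serpina1d 8.18%. Serpina1a and Serpina1c had 10 UMIs each, 0.317% of the total, and 8 of the 10 of Serpina1a came from adipose tissue on chow of run B. Of all cells, 452 (1.95%) held at least 1 Serpina1 UMI, and 188 of these held exactly 1. The UMIs were concentrated in few cells, since 35 cells held 50% or more of them, and the highest cell held 109.

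Most Serpina1 UMIs did not come from arterial-like cells, so the name under which the genes were proposed describes a minor part of the signal. Cluster 26, with 128 cells (0.553% of all), held 2152 UMIs, which is 68.2% of the total and 73.9% of those in mesentery. Its leading genes were Glycam1, Madcam1, Ubd, Enpp2, Pglyrp1, Fut7 and Chst4. Glycam1 and Madcam1 encode ligands for lymphocyte homing receptors, and Fut7 and Chst4 encode enzymes that modify such ligands, genes best known from the high endothelial venules of lymph nodes. By the marker limits the cluster is venous-like, resting on 3 raised venous markers, the fewest that the limits allow, with a mean log2 fold of 0.74. The venous-like clusters 6 and 7 had 8 raised. Cluster 17 (Cytl1, Mgp, Klk10, Pi16, Eln, Hey2) held 12.1% of the UMIs and cluster 8 (Gkn3, Igf2, Gja5) held 9.95%. Cluster 14 (Marco, Cd55, Bmp2) and cluster 21 (Esm1, Scgb3a1, Col13a1) held 3.68 and 2.95%, and no other cluster held more than 14 UMIs. In adipose tissue, where cluster 26 had 2 cells and no Serpina1 UMI, cluster 8 held most of the 243 UMIs (186).

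**Figure D1:**
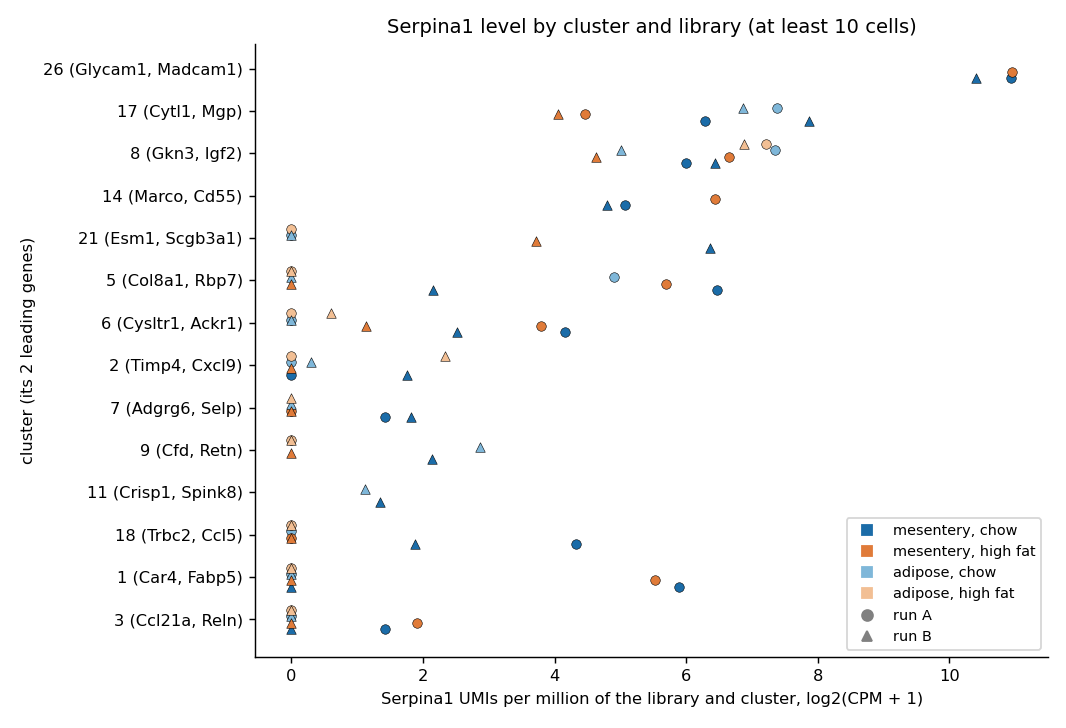
Serpina1 level of a library and cluster, as log2(CPM + 1) on the horizontal axis (CPM, UMIs scaled to a total of 1000000), for the 14 clusters with the most Serpina1 UMIs; each point is a library with at least 10 cells, coloured by group, with circles for run A and triangles for run B. Cluster 26 lies to the right of all other clusters in the 3 mesentery libraries drawn for it (1356 to 1986 CPM).

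In cluster 26 the summed level was 1961 CPM (Serpina1 UMIs scaled to a total of 1000000 UMIs of that cluster and library) in mesentery on chow A and 1356 CPM on chow B, from 728 UMIs in 39 cells and 1039 UMIs in 60 cells. On high fat diet it was 1986 CPM in run A (346 UMIs, 19 cells) and 488 CPM in run B (39 UMIs, 8 cells). The 2 diets therefore overlapped, with run B on high fat diet the lowest library. The means were 1658 ± 428 CPM (SD, n = 2) on chow and 1237 ± 1060 CPM (SD, n = 2) on high fat diet. Tested with edgeR's quasi-likelihood test within this cluster, a choice made after the clusters had been seen, the diet difference of the sum was -0.37 ± 0.73 (log2, SE), with an adjusted p of 1. Neither Serpina1b nor Serpina1e, the members tested there, was called, and 0.0% of the 4000 genes tested were called. With the run as a block the difference was -0.64 ± 0.37, with 0.45% of genes and neither member called. Without the library of chow A, of chow B or of each high fat diet library in turn, the difference ranged from -1.90 to 0.33, so 1 library decides its direction.

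Cluster 26 carried endothelial markers. Pecam1 was detected in 97 to 100% of its cells in each mesentery library, and Cdh5, the gene whose promoter drives Cre, in 89 to 100%. Of the venous markers, most of which were not raised in this cluster, Ackr1 stood at 250 to 574 CPM and Vwf at 331 to 467 CPM. The chemokine gene Ccl21a, listed as a lymphatic marker, stood at 5841 to 19331 CPM, while the lymphatic markers Prox1 and Flt4 did not exceed 7.8 CPM. The arterial marker Gja5 was at 0 to 5.7 CPM. Its cells were large, with a median of 9764 UMIs against 3360 over all cells, and their median doublet score was 0.060 against 0.047.

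Markers of other cell types in cluster 26 were measured beside this level. The 10 hepatocyte markers, including Alb, were all at 0 in 3 of its 4 mesentery libraries, and in chow B 1 of 10 was detected, with a summed 3.9 CPM. B cell markers summed to 431 CPM in chow A, where all 5 were detected, and to 22.2, 91.9 and 0 CPM in chow B, high fat diet A and high fat diet B. T cell markers summed to 6.5 to 56.6 CPM. In the T and B cells themselves, Serpina1 stood at 14.3 and 1.32 CPM in mesentery on chow A and B, with a UMI in 1.21% of 165 and 0.518% of 193 cells at median depths of 2593 and 3240 UMIs. In cluster 26 a UMI was found in 82.1% of the cells of chow A and 78.3% of those of chow B, at median depths of 9307 and 10491. After thinning every cell to 1000 UMIs the shares were 67.6 and 46.7% in cluster 26 and 0.637 and 0% in the T and B cells. Taking the T and B cells as a type that should lack the genes, cluster 26 lay far above that background at matched depth. The part of lymphocyte RNA in the level of cluster 26 was not tested. In the order of B cell markers above, from 431 through 91.9 and 22.2 to 0 CPM, Serpina1 stood at 1961, 1986, 1356 and 488 CPM.

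Cells within cluster 26 differed widely. The median cell held 13 Serpina1 UMIs in chow A and 8.5 in chow B, the highest 65 and 90, and 7 and 13 cells of the 39 and 60 held none. The variance between cells was 20.8 and 29.4 times the mean, where sampling of equal cells would give a ratio near 1. Serpina1b and Serpina1e varied together, with Spearman correlations across cells of 0.64 (39 cells of chow A) and 0.78 (60 cells of chow B). The sum followed Glycam1 at 0.26 and 0.60, Pglyrp1 at 0.18 and 0.68, and the cell's total UMIs at 0.20 and 0.58, all on CPM scales except the total. These correlations are across cells of 1 library each, which share depth, and are descriptions.

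**Figure D2:**
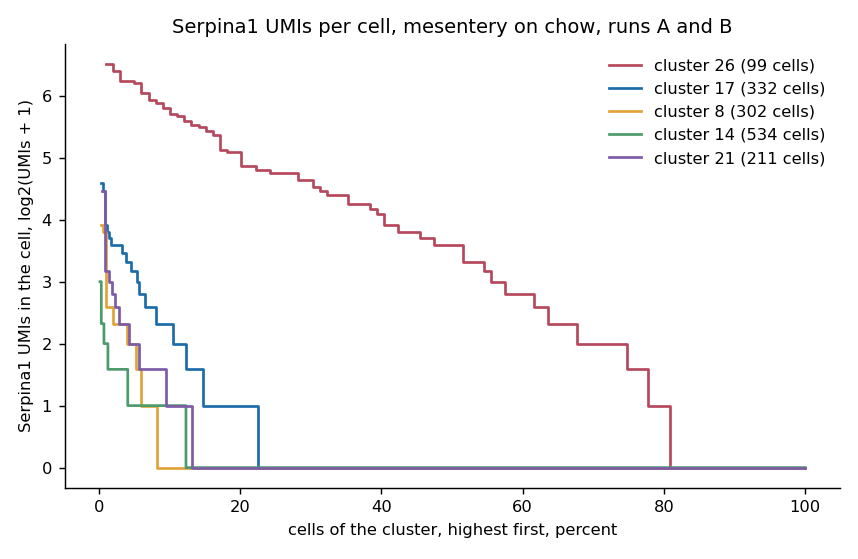
Serpina1 UMIs in each cell, as log2(UMIs + 1) on the vertical axis, against the percentage of the cluster's cells ranked from highest to lowest, for mesentery on chow with both runs joined; each line is a cluster. With the runs joined, 79.8% of the 99 cells of cluster 26 hold a UMI, against 22.3, 7.95, 12.2 and 12.8% in clusters 17, 8, 14 and 21.

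The copies were used in different proportions by the clusters. In cluster 26, Serpina1e made up 60.4 to 66.8% of the Serpina1 UMIs in each of 4 mesentery libraries and Serpina1b 30.8 to 38.7%, while Serpina1d made up 0.651% of all 2152. In mesentery, cluster 8 had 52.3% Serpina1b, 29.7% Serpina1d and 18.0% Serpina1e over 128 UMIs. In its adipose libraries the 3 were nearer to each other, at 38.2, 36.0 and 25.8% of 186 UMIs. Cluster 17 had 44.4% Serpina1e, 32.0% Serpina1d and 23.6% Serpina1b over 347 mesentery UMIs, and 76.5% Serpina1e over 34 adipose UMIs. In cluster 14 the UMIs were nearly all Serpina1b (95.7% of 116), and cluster 21 also leaned to Serpina1b (79.6% of 93).

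Over the 4 mesentery libraries, the share of Serpina1e was 63.6 ± 3.56% (SD, n = 4) in cluster 26 and 20.5 ± 5.39% in cluster 8, higher in cluster 26 in 4 of 4 libraries. For Serpina1d the order was the opposite, 0.667 ± 0.748% against 27.2 ± 14.2%, lower in cluster 26 in 4 of 4. Two-sided exact permutation tests over the paired libraries gave p = 0.125 for Serpina1e and for Serpina1d, the smallest value that 4 pairs allow, and p = 0.25 for Serpina1b, with adjusted values of 0.188, 0.188 and 0.25 over the 3 comparisons. The difference in Serpina1e exceeded 38 percentage points in each library, beyond the SDs given, yet this design cannot reach an adjusted p of 0.05. The cluster 8 shares rest on few cells with a UMI, 4 and 20 in chow A and B and 4 and 6 in high fat diet A and B. Chow B and high fat diet A and B held 80, 17 and 22 Serpina1 UMIs there, and chow A under 15. Of the 411 windows compared at the 3' end, Serpina1b shared 15 and Serpina1d 31 with other transcripts and Serpina1e none.

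**Figure D3:**
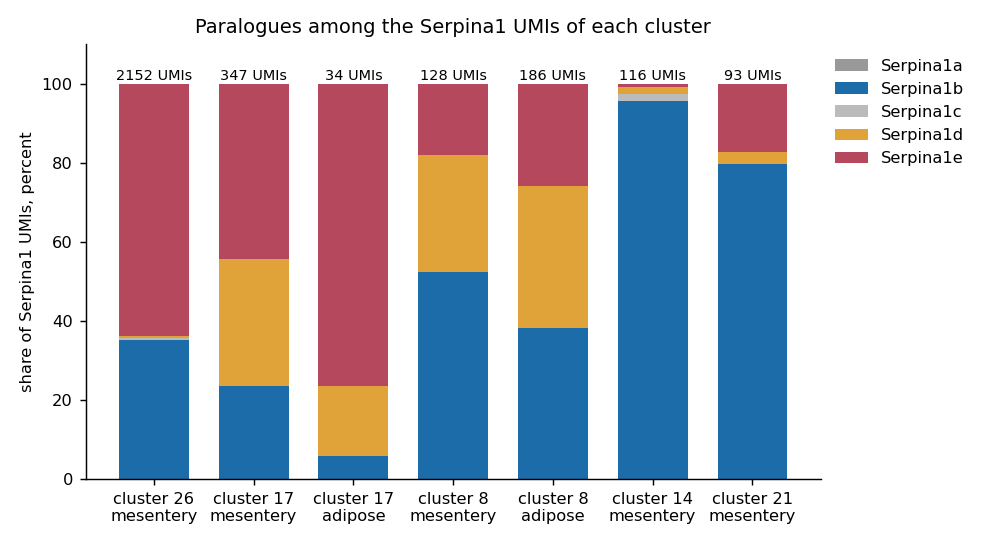
Share of the Serpina1 UMIs of a cluster taken by each of the 5 genes, in percent on the vertical axis, for clusters 26, 17, 8, 14 and 21 in mesentery and 17 and 8 in adipose tissue, with the number of UMIs above each bar. Cluster 26 is mostly Serpina1e (63.7%), cluster 14 mostly Serpina1b (95.7%), and Serpina1d is visible in clusters 17 and 8.

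Members were also found together in single cells. Among cells with at least 5 Serpina1 UMIs, Serpina1b and Serpina1e were both present in 77 of 80 in cluster 26, in 21 of 29 in cluster 17 and in 12 of 26 in cluster 8. Serpina1d was present in 24 of those 26 cells of cluster 8, in 27 of 29 of cluster 17 and in 8 of 80 of cluster 26. Cells with 1 or a few UMIs can show only 1 member by chance of sampling, which is why lower cells are left out of these counts.

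Within the arterial-like class, which joins clusters 5, 8 and 25, Serpina1 was sparse. The summed level was 63.4 CPM in mesentery on chow A (14 UMIs in 72 cells) and 49.5 CPM on chow B (84 UMIs in 465 cells). In mesentery on high fat diet it was 77.4 CPM in run A (21 UMIs) and 6.84 CPM in run B (22 UMIs). In adipose tissue it was 108 and 11.7 CPM on chow (32 and 43 UMIs) and 84.0 and 25.3 CPM on high fat diet (23 and 91 UMIs). Run A was the higher run in every group, and the 4 groups overlapped. Group means of the arterial class were 56.5 ± 9.80, 42.1 ± 49.9, 59.8 ± 68.0 and 54.7 ± 41.5 CPM (SD, n = 2) in mesentery on chow, mesentery on high fat diet, adipose on chow and adipose on high fat diet. No order among these means exceeds these SDs, which hold the difference between the runs as well as that between pools. In bulk-like sums of this kind, fewer Serpina1-positive cells and less RNA per cell cannot be told apart.

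By member, mesentery on chow had 34.5 ± 8.80 CPM of Serpina1b, 13.9 ± 0.402 of Serpina1d and 8.06 ± 1.40 of Serpina1e in arterial cells (SD, n = 2), and Serpina1a and Serpina1c had no UMI in the class there. On high fat diet the same 3 stood at 23.0 ± 29.9, 12.6 ± 13.4 and 6.46 ± 6.50 CPM. The share of arterial-like cells with a UMI was 11.1 and 5.16% in mesentery on chow A and B, 5.26 and 1.01% on high fat diet, 7.87 and 2.83% in adipose on chow and 3.1 and 2.49% in adipose on high fat diet. With cells thinned to 1000 UMIs the shares were 10.0, 2.80, 2.35, 0.524, 6.52, 0.829, 3.09 and 1.80% in the same order. In mesentery the T and B cell shares of the same libraries were 1.21 and 0.518% on chow, and with high fat feeding 1.30 and 0%, all lower. For high fat diet B that 0 comes from 92 cells and allows a share of up to 3.26%, so its 1.01% was not detectably above background.

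Nearly all arterial-like UMIs lay in cluster 8. There the level was 62.9 and 86.1 CPM in mesentery on chow A and B, and 99.0 and 23.7 CPM on high fat diet. It was 163 and 31.2 CPM in adipose on chow and 147 and 116 CPM in adipose on high fat diet. Mesentery on chow was thus not the highest group, and both adipose libraries on high fat diet lay above both mesentery libraries on chow. Cluster 5 (Col8a1, Rbp7), the larger arterial-like cluster with 1672 cells, held 14 Serpina1 UMIs in all, and none in the 61 and 546 cells of adipose tissue on high fat diet A and B, which allows up to 30.1 and 1.14 CPM.

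The unnamed cluster 17 had 10 of the 14 arterial markers raised, and took no name because the fibroblast marker Pi16 was among its leading genes. Its level was 76.6 and 232 CPM in mesentery on chow A and B (42 and 300 UMIs in 106 and 226 cells), with no overlap with the 21 and 15.5 CPM on high fat diet, which rest on 2 and 3 UMIs in 24 and 23 cells. The exact 95% counting intervals were 55.2 to 104 and 206 to 259 CPM on chow and 2.54 to 75.8 and 3.20 to 45.3 CPM on high fat diet. Adipose tissue on chow had 166 and 116 CPM from 8 and 18 UMIs. On high fat diet adipose tissue had 767 CPM in run A from 7 UMIs in 3 cells and 44 CPM in run B from 1 UMI in 4 cells. In cluster 17, 2 and 6 of 7 fibroblast markers were detected in mesentery on chow A and B, summing to 316 and 351 CPM, and 3 and 2 on high fat diet, summing to 524 and 403 CPM. Col1a1 was at 0 in all 4 of these libraries, and Col1a2, Pdgfra, Lum and Dpt were at 0 in chow A and high fat diet B, while Pi16 and Dcn were detected in both. The part of fibroblast RNA in the level was not tested.

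**Figure D4:**
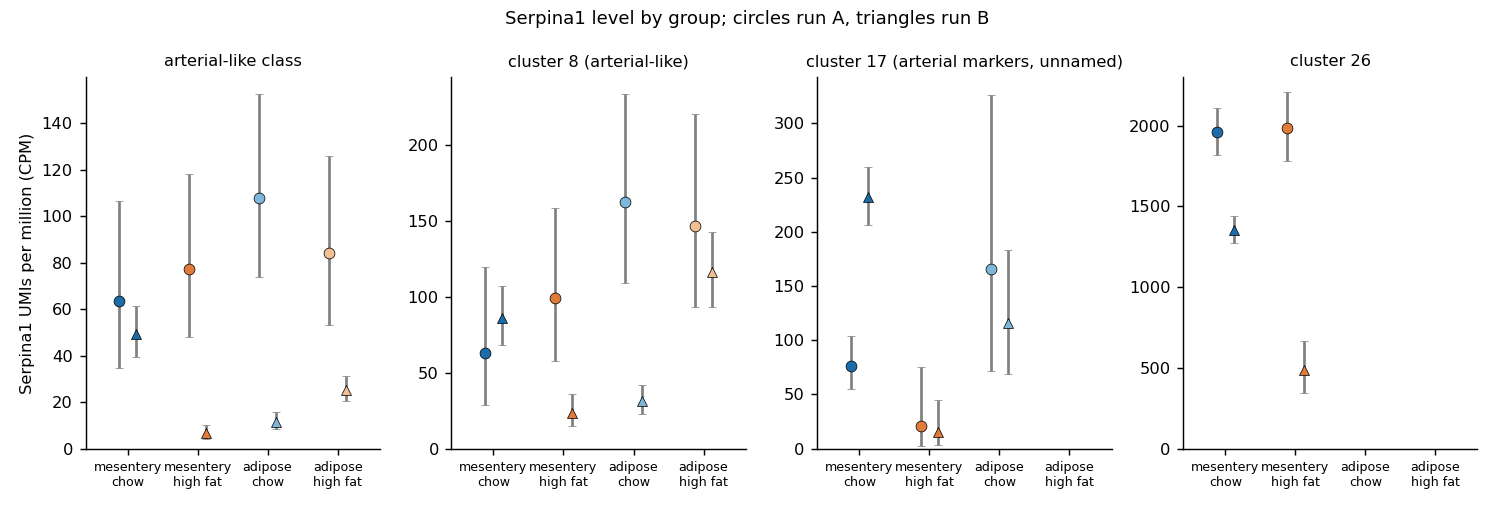
Serpina1 level in CPM on the vertical axis in the arterial-like class and in clusters 8, 17 and 26, by group; circles are run A, triangles run B, bars are exact 95% Poisson intervals of the count (counting error only), and libraries with under 8 cells are not drawn. In cluster 17 the chow libraries of mesentery lie above those on high fat diet (76.6 and 232 against 21 and 15.5 CPM), and in the arterial-like class and clusters 8 and 26 the mesentery libraries of the diets overlap.

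The share of cluster 17 among endothelial cells did not overlap between the diets, a difference that was not tested. It was 8.24% (run A) and 5.69% (run B) in mesentery on chow against 3.48 and 0.877% with high fat feeding, with 1.39 and 0.465% in adipose on chow and 0.286 and 0.115% in adipose on high fat diet. Other shares in mesentery did not overlap between the diets either. Cluster 14 made up 8.39 and 10.7% on chow against 4.49 and 0.114% with high fat feeding, and cluster 21 0.699 and 5.09% against 0.145 and 0.648%. The arterial-like class was higher with high fat feeding, at 13.8 and 22.6% against 5.59 and 11.7%. Cluster 26 made up 3.03 and 1.51% in mesentery on chow, against 2.75 and 0.305% with high fat feeding. A change in the Serpina1 sum of a class that includes these clusters therefore mixes their number with their level, and the 2 cannot be told apart in the summed counts.

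The diet and tissue comparisons were fitted on the summed counts of each class with all 8 libraries. In the arterial-like class Serpina1b, Serpina1d and Serpina1e passed the filter on low counts, and Serpina1a and Serpina1c did not. Diet in adipose tissue was not itself a comparison on which the genes were chosen. Its libraries do enter the difference between tissues, which was, so its test is not independent of that choice. The summed level differed by -0.07 ± 1.35 (log2, SE, high fat diet minus chow), at an adjusted p of 1 by edgeR. Of the 3 members 0 were called, against 0.0% of the 9092 genes tested (24 at an unadjusted p under 0.05, and 0 called by DESeq2). With the run as a block it was 0.53 ± 0.43, with 0 of 3 members and 0.352% of genes called, and with cluster 17 added as well 0.28 ± 0.59, with 0 of 3 members and 0.299% called.

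The other arterial-like values are descriptions. Diet in mesentery gave -0.71 ± 1.40 (log2, SE) for the sum, -1.15 ± 1.70 for Serpina1b, -0.78 ± 1.22 for Serpina1d and -1.01 ± 1.64 for Serpina1e, with 0.0% of genes called. Tissue on chow gave 0.05 ± 1.33 for the sum and the difference of the diet effects between tissues -0.64 ± 1.94. DESeq2 called 0.011% of genes for tissue on chow. Tissue on high fat diet (mesentery minus adipose) gave -0.59 ± 1.41 for the sum, with 0.0% of genes called. With the run as a block it gave -1.16 ± 0.47 (0.099% called), and with cluster 17 added as well -1.30 ± 0.65 (0.126% called). With the run as a block, since the runs are repeats of one experiment, diet in mesentery gave -1.71 ± 0.47 for the sum, with 0.66% of genes called. Under the same block tissue on chow gave 1.09 ± 0.44 (0.55% of genes called) and the difference between tissues -2.25 ± 0.64 (0.011% called). Adding cluster 17 to the class and the run as a block moved diet in mesentery to -2.75 ± 0.60, with -3.36 ± 0.63 for Serpina1e and -2.60 ± 0.67 for Serpina1d, and 3.14% of genes called. Tissue on chow then gave 1.73 ± 0.55 (3.15% of genes called) and the difference between tissues -3.03 ± 0.86 (0.00966% called). The size of the mesenteric diet difference thus depended on whether cluster 17 was counted as arterial and on the block.

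**Figure D5:**
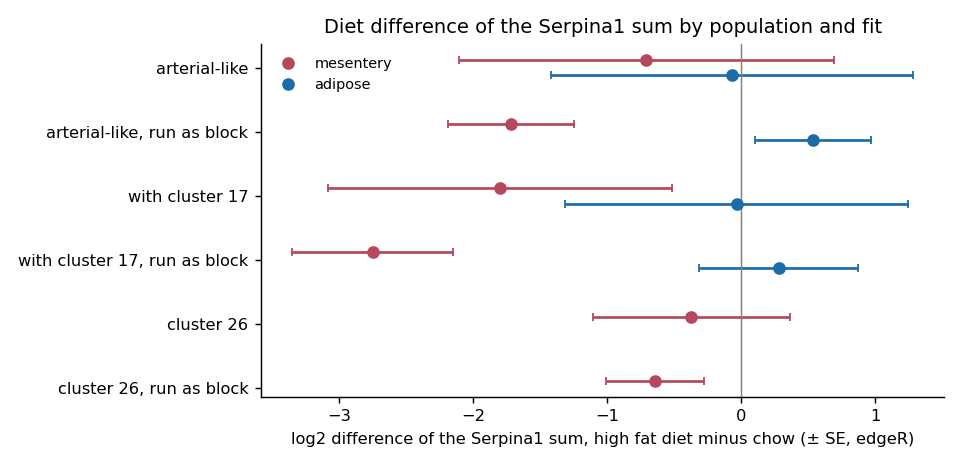
Log2 difference of the Serpina1 sum between high fat diet and chow (horizontal axis, edgeR estimate with SE bars) in mesentery (red) and adipose tissue (blue), by population and fit. The mesentery points move from -0.71 in the arterial-like class to -2.75 with cluster 17 and the run as a block, while the adipose points stay between -0.07 and 0.53.

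Among endothelial cells outside the arterial-like class, mesentery and adipose tissue lay far apart. The summed level was 165 and 87.3 CPM in mesentery on chow A and B (816 and 1519 UMIs), against 3.97 and 1.01 CPM in adipose on chow (8 and 27 UMIs). On high fat diet mesentery had 165 and 3.95 CPM (374 and 45 UMIs) and adipose had 3.75 and 0.248 CPM (7 and 3 UMIs). On chow the tissues did not overlap, and on high fat diet the lowest mesentery library, 3.95 CPM, lay next to the highest adipose library, 3.75 CPM. The log2 difference on chow was 6.06 ± 2.10 for the sum, which did not pass with edgeR (adjusted p = 1, unadjusted p = 0.0264). Neither did Serpina1b, Serpina1d or Serpina1e, and 0.0% of the 13513 genes were called (503 at an unadjusted p under 0.05). DESeq2 called 0.599% of genes, with an adjusted p of 0.0259 for the sum and 0.000758 for Serpina1b, while blocking on the run in edgeR gave 6.08 ± 1.09, adjusted p = 0.1, with 0.0148% of genes called. On the CPM scale, most of the mesentery level on chow came from cluster 26. Without that cluster, endothelial cells outside arterial-like clusters had 24.0 ± 6.82 CPM (SD, n = 2) in mesentery on chow. In adipose on chow they had 2.49 ± 2.10 CPM. Mesentery on chow thus stayed above adipose on chow beyond these SDs when cluster 26 was left out.

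On high fat diet the tissue difference of the sum outside the arterial-like class was 5.97 ± 2.18 (log2, SE), at an adjusted p of 1 by edgeR, and 0.0% of genes were called. Serpina1b had no UMI in either adipose library on high fat diet there, in 919 and 2703 cells, which allows up to 1.61 and 0.248 CPM, against 66.1 and 1.05 CPM in mesentery. DESeq2 gave it an adjusted p of 0.0105, with 0.0666% of genes called. Diet differences outside the arterial-like class were -0.62 ± 1.61 in mesentery and -0.53 ± 2.26 in adipose tissue for the sum, each with an edgeR adjusted p of 1, 0 of 3 members and 0.0% of genes called. In adipose tissue the block called 0.0296% of genes and DESeq2 0.0222%, and in mesentery DESeq2 called 0.0518%, none of them a member. The difference between the diet effects was -0.09 ± 3.02, with an edgeR adjusted p of 1 and 0.0% called.

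Capillary-like and lymphatic-like cells held few Serpina1 UMIs. Capillary-like cells had 4 UMIs in 37 cells and 6 in 872 cells of mesentery on chow A and B, and 0 in 84 and 3 in 2132 cells of adipose on chow. Mesentery minus adipose on chow was 2.55 in run A and 0.19 in run B on log2(CPM + 10). The small count in run A thus does not mean a low level, as few cells were counted. Lymphatic-like cells had 1 UMI in each of 343 and 294 cells of mesentery on chow and none in 659 and 160 of adipose on chow, which allows up to 3.22 and 3.89 CPM. Clusters outside the endothelium had 26 UMIs in all libraries. Joined within a library they stood at 0.104 to 9.73 CPM where any was counted. Some single clusters stood higher. In the neutrophil-like cluster 27 (71 cells in all libraries), high fat diet minus chow in mesentery of run B was -2.65 on log2(CPM + 10). This value rests on some of these 26 UMIs, has no counterpart in run A and was not tested. Ordered by the mean over mesentery on chow, the clusters ran from cluster 26 (1658 ± 428 CPM) through cluster 21 (234 ± 216) and cluster 17 (154 ± 110) to cluster 8 (74.5 ± 16.4), cluster 5 (45.7 ± 59.8) and cluster 14 (29.6 ± 4.21), all SD with n = 2. Cluster 26 stands clear of the others by these spreads, and clusters 21, 17 and 8 do not differ from their neighbours beyond them.

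Cluster 21, whose leading gene Esm1 is known from sprouting tip cells, held 17 Serpina1 UMIs in 9 cells of mesentery on chow A (387 CPM) and 75 in 202 cells of chow B (81.3 CPM). With high fat feeding mesentery held 0 in 1 cell of run A and 1 in 17 cells of run B (12.2 CPM). In adipose tissue it held none in 33 cells of chow A, 38 of chow B and 16 of high fat diet A, which allows up to 56.4, 15.4 and 83.8 CPM. On chow both mesentery libraries lay above these limits of their own run, and on high fat diet a difference between the tissues was not detectable at this depth. Cluster 14 had 108 and 426 cells in mesentery on chow, 31 and 3 with high fat feeding, and none in adipose tissue. Its level was 32.6, 26.6 and 85.9 CPM in chow A, chow B and high fat diet A, with no UMI in the 3 cells of high fat diet B.

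Cells of cluster 8 with and without a Serpina1 UMI were compared within each of the 8 libraries, a comparison added after the clusters had been seen. Of the 1919 genes tested, 10 were called by edgeR with the library as a block (0.521%), 3 higher and 7 lower in cells with a UMI. Bmp6, a growth factor that endothelial cells secrete, was higher by 1.15 ± 0.24 (log2, SE, edgeR adjusted p = 0.00972) and in 7 of 8 libraries. Its level was 230 ± 120 against 103 ± 37.4 CPM (SD over 8 libraries). Igf2, an imprinted growth factor, was higher by 1.12 ± 0.22 (edgeR adjusted p = 0.00379), in 4 of 8 libraries. Wwp1, a ubiquitin ligase, was higher by 1.00 ± 0.24 in 6 of 8. Of the 7 genes that were lower, Cd36, Fabp4 and Gpihbp1 are on the fixed list of capillary markers, and no other gene of that list was called. Rbp7 was also a leading gene of the arterial-like cluster 5. Lower were the fatty acid transporter Cd36 (-1.30 ± 0.20, lower in 8 of 8), the fatty acid binding protein Fabp4 (-1.10 ± 0.19, 7 of 8) and Gpihbp1, which anchors lipoprotein lipase (-1.60 ± 0.31, 6 of 8). So were the apolipoprotein gene Apoe (-1.55 ± 0.23, 7 of 8) and the retinol binding protein Rbp7 (-1.31 ± 0.25, 6 of 8). Nudt4 (-0.87 ± 0.19, 8 of 8) and Sept4 (-1.30 ± 0.31, 6 of 8) were the others. Median depth of cells with a UMI was below that of cells without in 5 of 8 libraries and above it in 3. The number of calls ranged from 4 to 21 as each library was left out, with 4 in the absence of either adipose library of run B and 21 in the absence of mesentery on chow A. In cluster 17 the comparison could be made in the 4 chow libraries only, and called 0 of 1761 genes (61 at an unadjusted p under 0.05).

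In arterial-like cells of mesentery on chow alone, the 10 genes highest in cells with a Serpina1 UMI in both runs were Igfbp3, Igfbp7, Pcsk5, Jag1, Tuba1a, Tmem47, Cnn3, Jmjd1c, Akt1 and Hs3st1. Jag1, a Notch ligand of arterial endothelium, stood at 471 against 228 CPM in run A and 456 against 250 CPM in run B. Igfbp3, a binding protein for insulin-like growth factors, stood at 428 against 147 and 1063 against 513 CPM. Over the 8 libraries of cluster 8, however, Igfbp3 went the other way, at 284 ± 192 against 485 ± 421 CPM (SD over 8 libraries), lower in 6 of 8 and not called (edgeR adjusted p = 0.118). The 5 lowest were Pttg1, Nr4a2, Zc3h15, Sub1 and Tmem238. These are ratios over 8 and 24 cells with a UMI, with no test.

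Genes whose level followed the Serpina1 sum most closely over 38 sums of library and endothelial class were Cytl1 (Pearson r = 0.81), Orai1 (0.76), Iqgap1 (0.73), H2-Q7 (0.71), Pdlim1 (0.69), Avpi1 (0.69), Trim47 (0.69), Emp2 (0.68), Ptprr (0.66) and Fxyd5 (0.66), on log2(CPM + 10), out of 572 genes with enough counts in arterial-like cells. Cytl1, a small secreted protein, is also the leading gene of cluster 17, at 6024 CPM in mesentery on chow B there. With sums per endothelial cluster and all 12328 genes with enough counts there, a setting that changed both the sums and the genes compared, none of the 10 remained, and Dram1 (0.80), Tox2 (0.75) and Ces2g (0.70) led. The sums share libraries and depth, so these are descriptions.

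Other genes of the serpin system were read from fixed lists. None of 20 other clade A serpins passed the filter in arterial-like cells, where the most abundant, Serpina3n, stood at 0 to 7.3 CPM. Outside the class 7 of them were tested, with a median tissue difference on chow of 5.26 (log2) against -0.01 over all genes, and none was called (3 of 7 at an unadjusted p under 0.05, against 3.72% of all genes). A gene can pass the filter through a single group where it is high. The median therefore describes these 7 genes and not the clade. Serpina3g, an inhibitor of cysteine proteases, stood at 667 and 578 CPM in cluster 14 and at 151 and 95.2 CPM in cluster 26 in mesentery on chow. Neither cluster had cells in adipose tissue on chow. Serpina3n stood at 240 and 207 CPM in cluster 26.

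Of 16 serpins of other clades, 10 were tested in arterial-like cells and none was called in any comparison, with medians of 0.29 for diet in mesentery and 0.25 for diet in adipose tissue against 0.01 and 0.003 over all genes. The most abundant were Serpinb6a (216 to 368 CPM), the antiangiogenic Serpinf1 (96.1 to 277 CPM), the collagen chaperone Serpinh1 (65.7 to 233 CPM) and the granzyme B inhibitor Serpinb9 (32.9 to 76.2 CPM). Among 6 target proteases, neutrophil elastase (Elane) and proteinase 3 (Prtn3) had no UMI in cluster 26, and St14 was the only one tested in arterial-like cells. Of 6 receptors that take up serpin complexes or lipoproteins, 3 were tested and none was called, with Scarb1 at 36.2 to 249 CPM in arterial-like cells. The 12 genes of export from the endoplasmic reticulum, which include Lman1, the cargo receptor known to carry alpha-1 antitrypsin, and the chaperones Hspa5, Calr and Canx, were all tested with a median diet difference in mesentery of 0.17 and none called.

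Of 13 transcription factors and receptors of the IL-6 family, known inducers of Serpina1 genes in liver, 7 were tested in arterial-like cells, with a median diet difference in mesentery of -0.57 and none called. They were led by Cebpd (65.6 to 607 CPM), Il6st (206 to 282 CPM), Stat3 (124 to 263 CPM) and Osmr (134 to 204 CPM). Elastic fibre genes, whose products the inhibitor protects, gave 7 of 15 tested in arterial-like cells, with a median of -0.13 for diet in mesentery and none called. Eln itself stood at 1269 and 1724 CPM in cluster 17 and at 67.3 and 53.5 CPM in cluster 26 in mesentery on chow, and Fbln5 at 398 and 590 CPM and 18.9 and 41.8 CPM.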

How the data were processed

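Single-cell libraries (10x Genomics 3' chemistry) came from sorted YFP+ cells of 4 groups with 2 pools each. UMI counts per gene and barcode were made by the authors with Cell Ranger 3.0.2 (run A) and 5.0.0 (run B), per the file headers, and deposited as filtered matrices of whole counts. The submitters' processing notes name mm10 and Seurat 4.3.0. For the annotation release and for reads matching several genes, the treatment is not given in the sources used.

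Barcodes with at least 500 UMIs, 300 genes and at most 10% mitochondrial counts were kept (23996), and 858 with the highest doublet scores were removed (3.58%), since the automatic threshold marked 52 (0.22%). Cells were clustered with scanpy 1.11.5 and leidenalg 0.10.2 on 2000 variable genes without the Serpina1 genes. The 30 principal components were aligned between runs A and B, not between tissues or diets, with 20 neighbours and a resolution of 1. A cluster took a class name with at least 3 markers raised 1.5-fold and a mean log2 fold of 0.5. CPM was computed over the 30406 shared genes. UMI counts were summed per library and class and tested with edgeR 4.0.16 (R 4.3.3; quasi-likelihood, TMM, filterByExpr, 4 group means over 8 libraries, Benjamini-Hochberg over all genes). DESeq2 1.42.0, no filter, a run block, kept doublets, a mitochondrial limit of 20%, a resolution of 2 and each library left out were alternatives. The labels' protocol describes the runs as repeats of the experiment, and deviations of libraries of the same run correlated at 0.476 to 0.592 in arterial-like and 0.528 to 0.694 in other endothelial cells. Nothing in the sources says how pools were formed beyond 6 mice each. The p-values measure the spread between pools, which includes the difference between the runs where the run is not a block. Intervals are exact, at 95%, and, like the limits of 3 counts where none was seen, cover counting error only.

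Named genes were the 5 members, up to 4 of each list by level in arterial-like cells, the 10 most like the sum, and the 10 highest and 5 lowest in cells with a Serpina1 UMI. The members and lists were chosen with earlier results of these data known. The comparisons within clusters 26, 8 and 17, of paralogue shares and with cluster 17 added were chosen after seeing the data. The edgeR script was tested on simulated data.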

Additional observations from a re-analysis of the deposited data

Results flagged for a closer look

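Serpina1 UMIs were also present in barcodes that entered no comparison. The filter on depth and mitochondrial content removed barcodes that held 153 Serpina1 UMIs in run A and 20 in run B. Called doublets held 38 Serpina1 UMIs over all libraries. Groups of 2 libraries are too small for a test of a library that stands apart.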

How the results depend on the processing

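Of the values computed under alternatives, 227 planned and 59 added main values or counts, and 319 planned and 59 added values of single genes, counted as the same. For most fitted differences this meant the same direction and side of the threshold. For arterial-like diet in mesentery, tissue on chow and the difference between tissues it meant a shift under the SD between the runs. Such a value could turn direction and still count as the same. Counts had to stay within a set ratio, and shares within the exact interval of the main value. Of the main values or counts, 14 planned and 2 added turned direction, 24 and 18 moved and 1 planned value passed the threshold anew. Of the values of single genes, 28 and 8 turned direction, 8 and 8 moved and 2 planned ones passed anew. With the run as a replicate block, arterial-like cells had 60 genes called in the mesenteric diet comparison, 32 for diet in adipose tissue, 50 for tissue on chow, 9 for tissue on high fat diet and 1 for the difference between tissues. Other endothelial cells had 4 for diet in adipose tissue and 2 for tissue on chow, the same numbers without cluster 26, and cluster 26 had 18. With the block and cluster 17 added, the counts were 325, 31, 326, 13 and 1, and the sums were -2.75 for mesenteric diet, 0.28 for adipose diet, 1.73 for tissue on chow and -3.03 for the difference between tissues. With no filter on low counts, arterial-like cells had 10 (mesenteric diet), 18 (adipose diet), 15 (tissue, chow) and 11 (tissue, high fat diet) genes called, 12 in cluster 26 and 31 between cells of cluster 8 with and without a UMI. DESeq2 called 1 gene for tissue on chow in arterial-like cells, and 7, 3, 81 and 9 in other endothelial cells for diet in mesentery, diet in adipose tissue, tissue on chow and tissue on high fat diet, where it gave 5.76 for the sum on chow. Directions turned as follows, and the cause was not tested. Diet in adipose tissue in arterial-like cells was 0.53 for the sum, 0.33 for Serpina1b and 0.54 for Serpina1e with the block, 0.24 for the sum and 0.09 for Serpina1b with a mitochondrial limit of 20%, and 0.26 for Serpina1b with block and cluster 17. Serpina1b for tissue on high fat diet was 0.08 with DESeq2. In other endothelial cells Serpina1d for diet in adipose tissue was -0.25 with the block. Serpina1e for the difference between tissues was -1.09 with the block, -2.08 without cluster 26 and -2.50 with both. Serpina1d for tissue on high fat diet was -2.19 without cluster 26 and -1.74 with the block too. Thinning to 1000 UMIs moved the share of arterial-like cells with a UMI to 2.80% in mesentery on chow B and 0.829% in adipose on chow B.

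When each library was left out in turn, called genes stayed at 0 for the comparisons of arterial-like and other endothelial cells, except 0 to 1 for tissue on chow in the latter. In cluster 26 they ranged from 0 to 24 and in the comparison of cells of cluster 8 from 4 to 21. In arterial-like cells, diet in mesentery ranged from -3.03 to 0.52 for the sum, -4.12 to 0.45 for Serpina1b, -2.17 to -0.77 for Serpina1d and -2.01 to 0.55 for Serpina1e. In arterial-like cells, diet in adipose ranged from -1.16 to 2.17 for the sum, -1.69 to 1.99 for Serpina1b, 0.11 to 1.82 for Serpina1d and -1.48 to 2.29 for Serpina1e. In arterial-like cells, tissue on chow ranged from -1.03 to 2.30 for the sum, -0.76 to 2.97 for Serpina1b, 0.58 to 1.57 for Serpina1d and -2.18 to 1.67 for Serpina1e. In arterial-like cells, tissue on high fat diet ranged from -2.90 to 0.66 for the sum, -3.14 to 1.39 for Serpina1b, -2.44 to -0.29 for Serpina1d and -2.61 to -0.16 for Serpina1e. In arterial-like cells, the difference between tissues ranged from -2.96 to 0.57 for the sum, -3.72 to 0.86 for Serpina1b, -3.03 to -0.88 for Serpina1d and -3.28 to 0.83 for Serpina1e. In other endothelial cells, diet in mesentery ranged from -5.08 to 0.36 for the sum, -5.62 to 0.40 for Serpina1b, -8.68 to -0.54 for Serpina1d and -4.76 to 0.37 for Serpina1e. In other endothelial cells, diet in adipose ranged from -2.89 to 0.93 for the sum, -3.40 to 0 for Serpina1b, -4.90 to 2.25 for Serpina1d and -2.41 to 0.62 for Serpina1e. In other endothelial cells, tissue on chow ranged from 5.04 to 7.07 for the sum, 8.18 to 11.58 for Serpina1b, 3.05 to 4.21 for Serpina1d and 4.42 to 7.20 for Serpina1e. In other endothelial cells, tissue on high fat diet ranged from 1.53 to 8.33 for the sum, 6.54 to 12.34 for Serpina1b, -5.81 to 6.96 for Serpina1d and 1.84 to 7.52 for Serpina1e. In other endothelial cells, the difference between tissues ranged from -4.56 to 2.25 for the sum, -2.37 to 3.52 for Serpina1b, -9.58 to 3.18 for Serpina1d and -3.91 to 1.77 for Serpina1e. In cluster 26, diet ranged from -1.90 to 0.33 for the sum, -2.13 to 0.35 for Serpina1b and -1.82 to 0.27 for Serpina1e. A group left with 1 library was assumed to vary like the others. Low counts limit the arterial-like values, which rest on 14 to 91 Serpina1 UMIs per library.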
